A study of Homo sapiens with 24 samples.

Results

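The comparison described here is lapatinib plus PHA-767491 against lapatinib alone in Hs578T, an established triple-negative breast cancer cell line. It asks which mRNAs change when PHA-767491, an inhibitor of the kinases cdc7 and CDK9, is added to lapatinib, an inhibitor of the tyrosine kinases EGFR and HER2. The 6 libraries, of 24 in the series, were taken by their labels. There were 3 from cells given 3.16 μM lapatinib and 3 from cells given 3.16 μM lapatinib with 1 μM PHA-767491, all after 6 h, and both groups therefore carry lapatinib. Of 36481 genes in the deposited table, 16561 (45.4%) had a value in all 6 libraries and were tested. The labels call the samples triplicates and name no separate cultures. A p-value of this comparison, unless stated otherwise, sets a difference against the spread usual at a gene's level in these 6 libraries alone. That spread may be technical.

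The values are log2 expression values that the authors scaled and then quantile normalised, so each difference is relative to the other genes of a library. Read numbers are not given in the sources used here. The count of genes with a value, the one available sign of depth, was 20368 to 23017 with lapatinib and 21636 to 22836 with co-treatment. Across the genes tested, Pearson's r was 0.97 to 0.98 between libraries of the same group and 0.94 to 0.95 between groups. The mesenchymal markers VIM, FN1, CDH2 and SPARC were at 8.76 to 12.85 in every library, while the epithelial markers CDH1 and EPCAM were at -0.01 or lower. ESRP1, an epithelial splicing factor, was at 2.32 to 3.6. Of 11 markers of blood, endothelial, liver, muscle and glial cells, 6 had a value in all 6 libraries and 0 of them passed the test. The highest were the endothelial PECAM1, at 1.90 to 3.15, and VWF, at 0.41 to 2.03, and the leukocyte marker PTPRC was at -2.11 to 0.58.

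As background, P-TEFb is the kinase that releases paused RNA polymerase II into productive elongation. It consists of CDK9 and a cyclin T. A large part of it is kept inactive in cells by the 7SK ribonucleoprotein, in which HEXIM1 or HEXIM2 inhibits the kinase, LARP7 binds the 7SK RNA and MEPCE caps it. The cdc7 kinase, with its activator DBF4, phosphorylates the MCM helicase to start DNA replication.

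Promoters are shown for 5 genes whose mRNAs moved in opposite directions. HEXIM1, MEPCE and PPP1R10 were lower, and the P-TEFb subunits CDK9 and CCNT1 were higher. Each sequence holds the 150 bases before a RefSeq transcription start on GRCh38.p14, read 5′ to 3′ on the strand of the gene. Where RefSeq gives several starts, the one nearest to the gene's end in the deposited table was taken. Capitals mark the TATA box letters TATAAA and the GC box letters GGGCGG, searched on both strands.
HEXIM1 (chr17:45148325-45148474, plus strand): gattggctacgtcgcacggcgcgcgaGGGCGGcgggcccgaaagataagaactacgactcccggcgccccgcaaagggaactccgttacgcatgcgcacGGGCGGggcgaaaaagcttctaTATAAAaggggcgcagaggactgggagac
MEPCE (chr7:100428640-100428789, plus strand): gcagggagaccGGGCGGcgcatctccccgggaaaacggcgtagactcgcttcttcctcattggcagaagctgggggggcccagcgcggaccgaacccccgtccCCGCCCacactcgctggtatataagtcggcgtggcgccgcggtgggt
PPP1R10 (chr6:30617244-30617393, minus strand): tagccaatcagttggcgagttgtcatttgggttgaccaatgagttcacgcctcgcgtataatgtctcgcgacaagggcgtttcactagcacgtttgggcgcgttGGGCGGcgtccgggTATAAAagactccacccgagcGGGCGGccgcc
CDK9 (chr9:127785884-127786033, plus strand): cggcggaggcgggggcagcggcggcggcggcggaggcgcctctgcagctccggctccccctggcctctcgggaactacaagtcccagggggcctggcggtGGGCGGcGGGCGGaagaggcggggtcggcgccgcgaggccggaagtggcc
CCNT1 (chr12:48716708-48716857, minus strand): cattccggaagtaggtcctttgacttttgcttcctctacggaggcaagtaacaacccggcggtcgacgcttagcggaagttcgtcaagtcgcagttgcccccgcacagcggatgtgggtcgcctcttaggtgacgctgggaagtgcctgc

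HEXIM1 and PPP1R10 hold a TATAAA that starts 29 and 32 bases before the start site. The other 3 sequences do not hold these exact letters. MEPCE holds tatataag at a similar distance, a variant of the TATA box that the search did not cover. Over windows of 250 bases before to 50 bases after the start, found for 11216 of the genes tested, TATAAA was present on either strand in 6.26% of all, 5.96% of the higher and 5.66% of the lower genes. GGGCGG was present in 68.1%, 67.9% and 72.9%. The AP-1 sequence TGACTCA was present in 3.43%, 2.98% and 2.57%, and the E-box CACGTG in 9.74%, 10.4% and 9.51%. Neither the CRE sequence TGACGTCA (3.21%, 3.11% and 3.55%) nor the heat shock sequence GAANNTTC (4.75%, 4.57% and 4.63%) differed by more than a percentage point between these sets. No test was run on these shares.

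With co-treatment, 39.7% of the genes tested changed at an adjusted p-value below 0.05. They comprised 4108 genes (24.8% of those tested) that were higher and 2459 (14.8%) that were lower than with lapatinib alone. The excess of higher genes depended on the scaling and was lost after centring, as described below. A log2 difference of 1 or more was found for 1185 of the higher and 767 of the lower genes, and one of 2 or more for 191 and 165. The groups did not overlap in 4915 genes with higher values (29.7%) and 3019 with lower values (18.2%). The 15 largest decreases among genes above the median level were those of PPP1R10, ATXN7L3B, MT1E, MEPCE, MAT2A, SLC5A3, NABP1, MYBL1, C6orf62, USP13, KIF20B, C15orf52, SLC26A2, NSD1 and AHCTF1. Among the 15 largest increases were those of RBM15, GPR3, C16orf91, ZNF408, RNMTL1, APOLD1, PIGZ, CLK3, ZNF581, ZFHX4, TGM2, ZNF250, SPATA2 and FASTKD5.

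**Figure D1:**
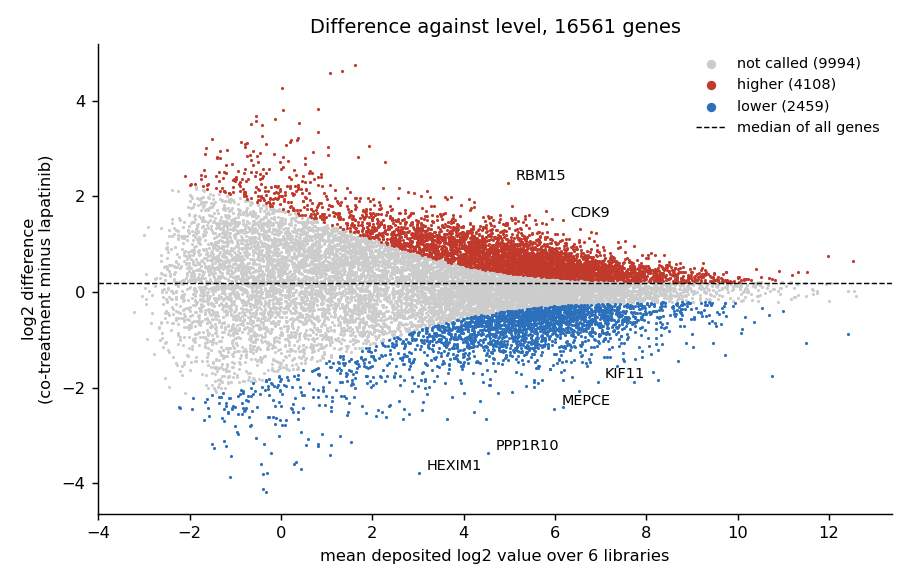
Each point is 1 of 16561 genes, with its mean log2 value over the 6 libraries on the x axis and the log2 difference, co-treatment minus lapatinib, on the y axis. The 4108 higher genes are red, the 2459 lower genes are blue, and the dashed line is the median of all genes at 0.19.

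The median difference over all genes was 0.19 on the log2 scale, and 0.05 after each library was centred on its own median. As deposited, the library medians over the genes tested rose in the order of the number of genes listed. They ran from 3.73 in lapatinib replicate 2 (20368 genes listed) to 4.25 in lapatinib replicate 3 (23017). The libraries were therefore not level over the genes tested. After centring, 3333 genes (20.1%) were higher and 3508 (21.2%) lower, so that 48.7% of the calls were higher, against 62.6% as deposited. Whether the excess as deposited reflects the treatment was not tested. The variance trend left nothing of each gene's own spread in the test (infinite prior degrees of freedom). The standard errors printed after ± come from that fit. They are the spread usual at a gene's level, not that of its own libraries. Without the trend, 2050 genes (12.4%) were higher and 1599 (9.66%) lower, and adjusted p-values of that test are given below as "without the trend". When the 6 Hs578T libraries of DMSO and PHA-767491 alone joined the limma fit, 0 genes passed in either direction and 786 had an unadjusted p below 0.05. Of those 6 libraries, DMSO replicate 1, DMSO replicate 2 and PHA-767491 replicate 1 listed only 9967, 17137 and 18090 genes. TGM2 was at 10.13 in DMSO replicate 2 and 9.85 in PHA-767491 replicate 3, against 3.42 to 5.39 in the Hs578T libraries other than these and DMSO replicate 1, and 11.26 or more in every library of the second line, SKBR7. With those 4 left out, 4041 genes were higher and 2503 lower.

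Within the P-TEFb and 7SK list, the kinase and its cyclins were higher while its inhibitor and the 7SK capping enzyme were lower. Of 25 members tested, 9 were higher (36.0%, against 24.8% of all genes) and 8 lower (32.0%, against 14.8%), with a median of 0.00 against 0.19 for all genes. HEXIM1 (chr17:45148502-45152101) was at 4.96, 4.86 and 4.97 with lapatinib and at 1.01, 1.51 and 0.89 with co-treatment. All 3 co-treated libraries lay far below the lapatinib libraries. The difference of -3.79 ± 0.34 (SE of the fit with the trend, n = 3 and 3) is a 13.8-fold lower value. Its adjusted p was 1.1e-26 (0.0083 without the trend). MEPCE (chr7:100428790-100434126) was at 7.27, 7.09 and 7.25 with lapatinib and at 4.74, 4.99 and 4.58 with co-treatment. That is 5.43-fold lower, with spreads much smaller than the gap (difference -2.44 ± 0.13, adjusted p 1.2e-77 and 0.0088 without the trend). HEXIM2, the paralogue of HEXIM1, was low in all libraries, with a difference of -1.61 that missed the threshold (adjusted p 0.052, and 0.038 without the trend). LARP7 was at 4.44, 4.36 and 4.43 with lapatinib and at 4.65, 4.82 and 4.61 with co-treatment, and did not pass (adjusted p 0.25). HEXIM1, MEPCE and PPP1R10 overlap other genes of the table (AC002117.1, ZCWPW1 and MRPS18B among them), and whether counting used strand is not given in the sources used here.

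**Figure D2:**
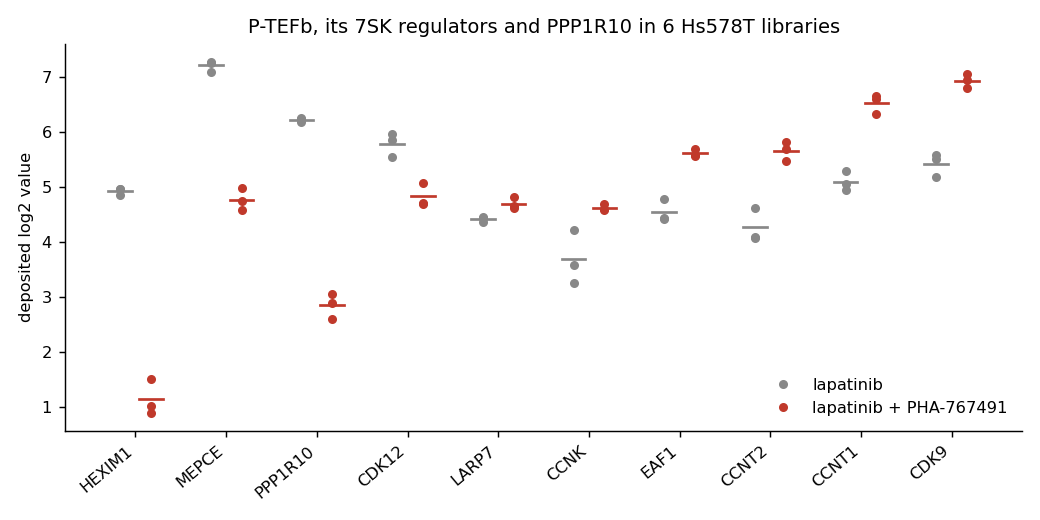
The deposited log2 value of 10 genes in the 3 lapatinib libraries (grey) and the 3 co-treatment libraries (red), with bars at the means of 3. HEXIM1, MEPCE, PPP1R10 and CDK12 lie lower with co-treatment and CCNK, EAF1, CCNT2, CCNT1 and CDK9 higher, with no overlap between the groups, while LARP7 differs by 0.28.

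CDK9 was at 5.50, 5.18 and 5.58 with lapatinib and at 6.93, 7.05 and 6.79 with co-treatment, a 2.83-fold increase (1.5 ± 0.12, adjusted p 6.3e-32, and 0.012 without the trend). CCNT1, the main cyclin partner of CDK9, was at 5.04, 4.95 and 5.29 and then at 6.65, 6.33 and 6.60 (1.43 ± 0.13, adjusted p 1.3e-24, and 0.012 without the trend). The second T-type cyclin, CCNT2, was higher by 1.40 and EAF1, a partner of the ELL elongation factors, by 1.06. CCNK, the cyclin of CDK12, was higher by 0.94, a call that was lost without the trend (adjusted p 0.055), while CDK12 itself was lower by 0.95 ± 0.15. PPP1R10, the nuclear targeting subunit of protein phosphatase 1, belongs to none of the lists and had the largest decrease among genes above the median level. It was at 6.17, 6.24 and 6.26 with lapatinib and at 2.88, 3.05 and 2.61 with co-treatment, or 10.4-fold lower.

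The same genes were measured in SKBR7, also triple-negative, under the same 2 treatments. HEXIM1 was at 6.16, 6.94 and 6.66 with lapatinib and at 0.44, 4.02 and 3.91 with co-treatment there. The SKBR7 difference was -3.79, and -2.44 without SKBR7 lapatinib replicate 2 and co-treatment replicate 1, which listed only 18021 and 16232 genes. MEPCE differed by -3.29 in SKBR7 (-2.52 without those libraries), CDK9 by 1.21 (1.13) and CCNT1 by 1.47 (1.15). For these 4 genes the test of the difference between the lines did not pass (adjusted p 0.95 to 1.00, and 0.10 to 0.92 without those libraries). The line terms had standard errors of 0.34 to 0.98 on the log2 scale, so the test does not show that the lines responded alike. PPP1R10 differed by -2.17 in SKBR7 (-1.74), and its line term passed only without those libraries (adjusted p 0.82, and 0.0010 without them).

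Subunits of RNA polymerase II changed in both directions. POLR2A, the catalytic subunit whose tail is a P-TEFb substrate, was at 7.58, 8.15 and 8.17 with lapatinib and at 7.0, 6.80 and 6.92 with co-treatment (-1.06 ± 0.10, adjusted p 5.8e-24, and 0.025 without the trend). POLR2B, the second largest subunit, was lower by 0.64 ± 0.10 and the smaller POLR2D by 0.59. Of the 11 subunits tested 3 were lower (27.3%, against 14.8% of all genes) and 6 higher (54.5%, against 24.8%), with a median of 0.38. After centring 4 were lower and 3 higher, and without the trend 3 and 2. POLR2J (0.69) and POLR2I (0.88, adjusted p 0.16 without the trend) were among the 6. In Mediator, the coactivator that bridges transcription factors and the polymerase, 8 of 33 members were higher (24.2%) and 7 lower (21.2%). The higher share was near that of all genes (24.8%), and the lower share was above it (14.8%). Their median was -0.02 against 0.19 for all genes, and after centring 5 were higher and 13 lower. MED26, the subunit that binds elongation factors, had the largest difference of the 33, from 2.85, 2.12 and 3.03 to 4.75, 4.66 and 4.41 (1.94 ± 0.27).

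Genes of mitosis were lower as a group. Of 35 members tested 28 (80.0%, against 14.8% of all genes) were lower and 3 higher, and the median difference was -0.75 against 0.19 for all genes. After centring 27 were lower and 2 higher, and without the trend 24 and 1. The median level of the 35 genes was 7.36, 7.41 and 7.49 with lapatinib and 6.58, 6.62 and 6.51 with co-treatment, so the groups did not overlap. In bulk libraries fewer mitotic cells and less mRNA per cell cannot be told apart. KIF11, the motor that separates the spindle poles, was at 7.73, 7.89 and 8.0 and then at 6.08, 5.93 and 5.97 (-1.88 ± 0.11, 3.68-fold lower). CDC25B, the phosphatase that activates CDK1, was at 8.13, 8.06 and 8.19 and then at 6.62, 6.62 and 6.50 (-1.55 ± 0.10). The kinetochore component NDC80 was lower by 1.41 and the kinases AURKB and AURKA by 1.24 and 1.19. PLK1 was lower by 0.86 and cyclin B1 (CCNB1) by 0.73. WEE1, the kinase that holds CDK1 inactive, went the other way, from 5.78, 5.56 and 5.63 to 6.30, 6.27 and 6.28 (0.62 ± 0.13, adjusted p 1.0e-05, and 0.023 without the trend). The proliferation marker MKI67 overlapped between groups and lost its call without the trend (-0.23, adjusted p 0.54).

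More members of the cdc7 and origin licensing list were lower than higher. Of 25 members 8 were lower (32.0%, against 14.8% of all genes) and 5 higher (20.0%, against 24.8%), with a median of -0.09. After centring 9 were lower and 2 higher, and without the trend 8 and 2. CDC7 was at 4.75, 4.75 and 5.07 with lapatinib and at 3.89, 3.81 and 3.85 with co-treatment (-1.01 ± 0.21, adjusted p 1.1e-05, and 0.015 without the trend). GINS1 and ORC5, of the replicative helicase and the origin recognition complex, were lower by 1.18 and 1.16. The activator DBF4 and the helicase subunit MCM2 did not pass (-0.13 and -0.09, adjusted p 0.45 and 0.50). CDC45 was higher by 0.63 ± 0.14 (adjusted p 5.6e-05, and 0.040 without the trend). Of the G1 regulators, CCND1 (-0.37) was lower and CDK4 (0.24) higher, both calls lost without the trend, and RB1 did not pass (-0.18).

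Genes of DNA damage signalling and repair were lower in 16 of 30 cases (53.3%, against 14.8% of all genes) and higher in 5 (16.7%, against 24.8%). Their median was -0.42 against 0.19 for all genes. The helicase BLM was at 4.54, 4.30 and 4.65 and then at 3.14, 3.06 and 2.45 (-1.61 ± 0.27). BRCA2, a mediator of homologous recombination, was lower by 1.44 ± 0.28 and FANCM by 1.44 ± 0.25. TP53BP1 was lower by 1.22 and ATRIP, the partner of the ATR kinase, by 1.41. PALB2, which links BRCA1 to BRCA2, was higher, from 4.33, 4.34 and 4.67 to 5.57, 5.58 and 5.34 (1.05 ± 0.17, adjusted p 1.0e-08, and 0.017 without the trend).

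Among caspases and their regulators, activators as well as an inhibitor were lower. Of 19 members 10 were lower (52.6%, against 14.8% of all genes) and 2 higher (10.5%, against 24.8%), and the median was -0.59 (-0.74 after centring). APAF1, the scaffold of the apoptosome, was at 3.93, 4.25 and 4.79 with lapatinib and at 2.41, 1.76 and 1.40 with co-treatment (-2.46 ± 0.33, 5.52-fold lower). It also belongs to a list of genes the study chose on these samples, as do CDC25B, BCL2, ROCK2, DDX3X and HOXC6. Of the 13 members of that list 10 were lower and 0 higher, which is not independent evidence of their direction. RIPK1 and CASP2 were lower by 1.63 and 1.34, and the caspase inhibitor XIAP by 0.79. BIRC3, an inhibitor of apoptosis that NF-kB induces, was higher by 0.83, while BIRC2 of the same family differed by -0.59.

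In the BCL2 family 4 of 16 members were lower and 4 higher, and the 25.0% that were higher is near the share of all genes (24.8%, with 14.8% lower). MCL1, a short-lived survival protein, was at 7.99, 8.04 and 8.13 and then at 7.12, 7.09 and 7.04 (-0.97 ± 0.10, adjusted p 7.6e-21, and 0.012 without the trend). BCL2 itself was near the lower limit of the table, at 0.89, -0.49 and -0.46 and then at -2.36, -0.76 and -3.58. Its call (adjusted p 0.030) was lost without the trend (0.097) and when any of 4 single libraries was left out. BCL2L1, which encodes BCL-XL, was higher by 0.53 (adjusted p 1.6e-05, and 0.044 without the trend).

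**Figure D3:**
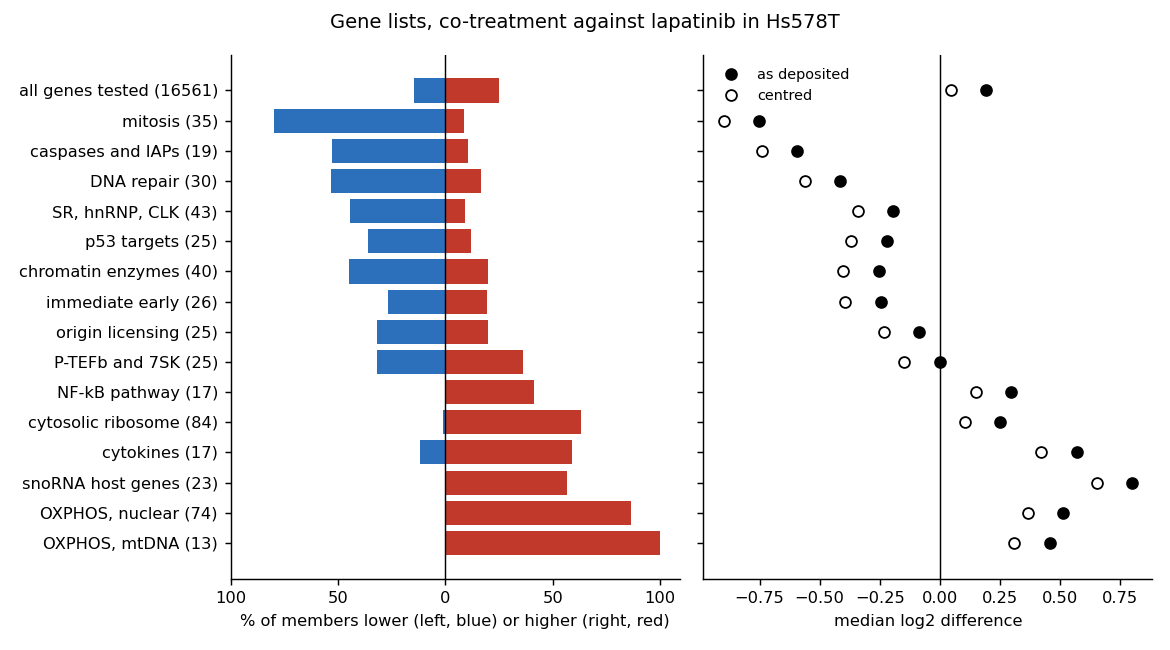
Left, the share of tested members of each list that were lower (blue) or higher (red), with the number tested in brackets. Right, the median log2 difference as deposited (filled) and after centring each library on its median (open): the mitosis list is lowest at -0.75 and the snoRNA host genes highest at 0.80, against 0.19 for all genes.

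ERBB receptors are the targets of lapatinib, and immediate early genes respond to the ERK pathway downstream of them. EGFR was lower by 1.43 ± 0.10 (adjusted p 2.0e-44, and 0.015 without the trend), and ERBB2 by 0.35, a call lost without the trend (0.14). Of 26 immediate early genes 7 were lower (26.9%, against 14.8% of all genes) and 5 higher (19.2%, against 24.8%). Without the trend 3 of the 26 were lower, a share near that of all genes (9.66%), and 2 higher (against 12.4%). After centring 11 were lower and 3 higher, against 21.2% and 20.1% of all genes. JUND, an AP-1 subunit, was at 5.08, 4.39 and 5.06 and then at 2.95, 3.73 and 2.31 (-1.84 ± 0.24). EGR2 (-1.72) and EGR3 (-1.49) lost their calls without the trend (adjusted p 0.085 and 0.060). FOS, JUN and EGR1 did not pass (0.62, -0.15 and -0.32), although EGR1 did after centring. MYC was higher, from 5.93, 5.84 and 6.08 to 6.60, 6.62 and 6.36 (0.57 ± 0.12, adjusted p 1.6e-05, and 0.038 without the trend). Of 23 genes of the ERK feedback list 8 were higher (34.8%, against 24.8% of all genes) and 1 lower (4.35%, against 14.8%). The receptor signalling inhibitor SPRY2 was at 5.10, 4.73 and 5.13 and then at 6.27, 6.29 and 6.08 (1.22 ± 0.14), while the ERK phosphatase DUSP6 did not pass (0.18, adjusted p 0.36).

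Most cytokine genes that passed were higher. Of 17 tested, 10 were higher (58.8%, against 24.8% of all genes) and 2 lower (11.8%, against 14.8%), with a median of 0.57 against 0.19 for all genes (0.42 after centring, with 9 higher and 2 lower). CXCL3 was at 3.93, 3.61 and 4.13 with lapatinib and at 5.45, 5.63 and 5.12 with co-treatment (1.51 ± 0.19, adjusted p 4.9e-14, and 0.015 without the trend). The chemokine CCL20 was low but separate, at 0.18, -1.38 and -0.71 and then at 2.06, 1.86 and 1.63. CSF2 was higher by 1.52 and IL6 by 0.77. The 2 that were lower were IL11 (-2.66) and CSF1 (-0.49). In the list of NF-kB subunits and feedback genes 7 of 17 were higher (41.2%, against 24.8% of all genes) and 0 lower. Without the trend 2 of the 17 were higher, a share near that of all genes (12.4%), and NFKBIA, NFKB1 and RELA did not pass.

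Splicing regulators changed in both directions, and 20 of 43 did not pass. Of 43 members 19 were lower (44.2%, against 14.8% of all genes) and 4 higher (9.30%, against 24.8%), and the higher ones were the kinases CLK1, CLK2, CLK3 and CLK4, which phosphorylate SR proteins. CLK3 was at 5.06, 4.76 and 5.03 and then at 6.72, 6.75 and 6.44 (1.69 ± 0.13, adjusted p 5.8e-34, and 0.011 without the trend). The SR protein genes SRSF5, SRSF3 and SRSF6 were lower by 1.55, 1.29 and 1.00. Chromatin enzymes were lower in 18 of 40 cases (45.0%, against 14.8% of all genes) and higher in 8 (20.0%, against 24.8%). The histone methyltransferase NSD1 was at 6.23, 6.80 and 6.71 and then at 4.91, 4.5 and 4.64 (-1.89 ± 0.14). SETD1B and SETD1A, catalytic subunits of H3 lysine methyltransferase complexes, were higher by 1.54 and 1.08.

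Nuclear genes of the respiratory chain were higher, and so were the mRNAs of the mitochondrial genome. Of 74 nuclear members 64 (86.5%, against 24.8% of all genes) were higher and 0 lower, with a median of 0.51. After centring 40 were higher and without the trend 22, with 0 lower in both. The median level of the list was 6.72, 6.45 and 6.73 with lapatinib and 7.07, 7.21 and 7.03 with co-treatment. COX7A1, a subunit of cytochrome c oxidase, was at 5.40, 4.60 and 5.20 and then at 6.14, 6.34 and 6.03 (1.10 ± 0.14, adjusted p 1.6e-13, and 0.033 without the trend). All 13 mRNAs of the mitochondrial genome were higher (median 0.46), 5 of them after centring and 4 without the trend. Cytosolic ribosomal protein genes were higher in 53 of 84 cases (63.1%, against 24.8% of all genes) and lower in 1 (1.19%, against 14.8%). After centring only 9 of the 84 were higher, against 20.1% of all genes. That left 1 lower, against 21.2% of all genes.

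These lists hold short mRNAs, and the difference followed mRNA length. Over 12759 protein-coding genes the median was 0.52 for mRNAs of up to 1000 nt (706 genes, 58.5% higher and 2.83% lower). It was 0.15 at 2000 to 3000 nt and -0.05 at 6000 to 8000 nt (1279 genes, 20.0% higher and 26.6% lower). The respiratory chain list, with a median mRNA of 781 nt, had a median near that of all coding mRNAs of up to 1000 nt (0.51 against 0.52). That bin was not cleared of list members, and the share higher was 86.5% in the list and 58.5% in the bin. The mitosis list, with a median mRNA of 2966 nt, was below the bin of 2000 to 3000 nt (-0.75 against 0.15). Of the chromatin list (median mRNA 7717 nt) 45.0% were lower, against 26.6% in the bin of 6000 to 8000 nt. For the DNA damage and repair list (5168 nt) it was 53.3%, against 24.1% at 4000 to 6000 nt. Of the cytokine list (1507 nt) 58.8% were higher, against 39.4% at 1000 to 2000 nt. Across genes, Spearman's rho between mRNA length and the difference was -0.23. The same measure between 2 libraries of 1 group ran from -0.43 to 0.36, so the ranks followed mRNA length within groups as well, and genes are not independent replicates. The median of mRNAs of up to 1000 nt minus that of all coding genes was 0.39 between groups, and -0.16 to 0.28 between libraries of 1 group. The part of this variation in the results on these lists was not tested.

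Gene span showed another pattern. The median difference fell from 0.37 for genes of up to 2 kb to -0.01 for those of 100 to 200 kb, and was 0.51 for the 192 genes over 500 kb (39.6% higher and 7.29% lower). Their median minus that of all coding genes was 0.38 between groups, and -0.26 to 0.11 between libraries of 1 group. NTM, a neural cell adhesion gene of 966 kb chosen here after its values were seen, was at 4.99, 4.84 and 5.17 with lapatinib and at 6.50, 6.43 and 6.41 with co-treatment (1.45, adjusted p 3.9e-24, and 0.011 without the trend). Among mRNAs longer than 6000 nt, the 51 genes within 10 kb had a median of -0.46 and the 121 genes over 500 kb a median of 0.46. Over the chromosomes other than Y the median ran from 0.06 on chromosome 21 to 0.38 on X, with 0.61 for the mitochondrial genome.

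**Figure D4:**
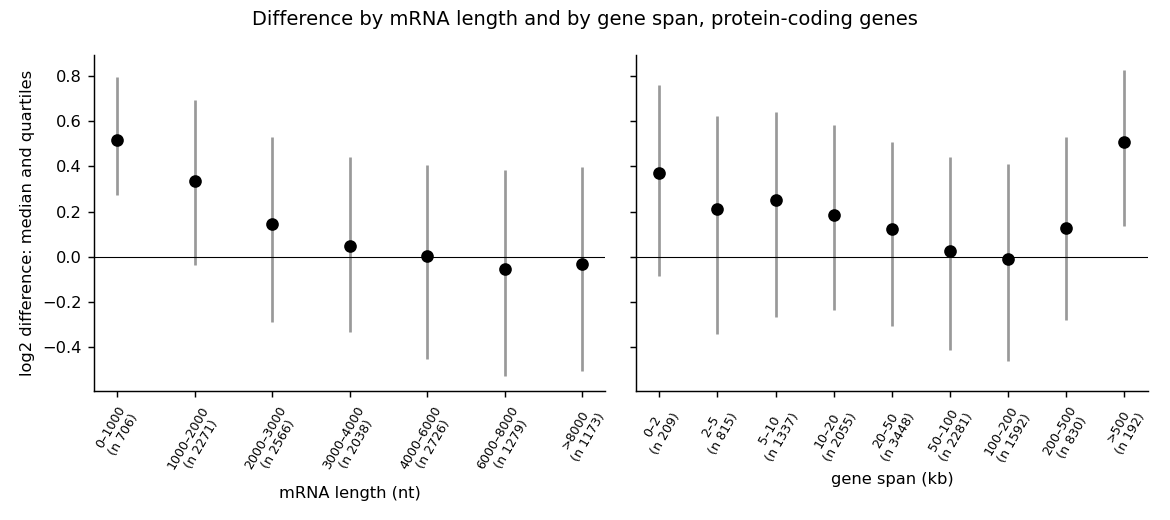
Median (points) and quartiles (bars) of the log2 difference, co-treatment minus lapatinib, for protein-coding genes in bins of mRNA length in nucleotides (left) and of gene span in kb (right), with the number of genes per bin. The median falls from 0.52 to -0.03 with mRNA length, while along gene span it falls to -0.01 at 100 to 200 kb and is 0.51 over 500 kb.

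Of 23 host genes of small nucleolar RNAs 13 were higher (56.5%, against 24.8% of all genes) and 0 lower. Their median was 0.80 (0.65 after centring), where the 1781 long non-coding RNAs tested had a median of 0.37, with 13.2% higher. ZFAS1 was at 5.54, 5.23 and 5.19 and then at 6.25, 6.46 and 6.26 (1.01 ± 0.13, adjusted p 1.4e-12, and 0.017 without the trend). SNHG12 was higher by 1.31 and SNHG16 by 0.96, while GAS5 was higher by 0.30 and lost its call without the trend (0.20).

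The response to added PHA-767491 was compared between the lines over 12 libraries and 12967 genes. It differed for 2 genes (0.0154%), CDKN1A and TGM2 by limma, and 679 genes had an unadjusted p below 0.05. Without SKBR7 lapatinib replicate 2 and co-treatment replicate 1 it differed for 333 genes (2.57%), CDKN1A and TGM2 among them. It differed for 0 genes when SKBR7 co-treatment replicate 2 or 3 was left out or without the trend, for 9 without SKBR7 lapatinib replicate 1 and for 24 without SKBR7 lapatinib replicate 2. TGM2 passed in only 3 of the 12 fits that left out 1 library, and not after centring (adjusted p 0.16). CDKN1A encodes the CDK inhibitor p21. In Hs578T it was at 5.88, 5.65 and 5.81 with lapatinib and at 4.70, 4.80 and 4.52 with co-treatment, and in SKBR7 at 8.58, 8.62 and 9.13 and then at 9.35, 9.61 and 9.80.

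**Figure D5:**
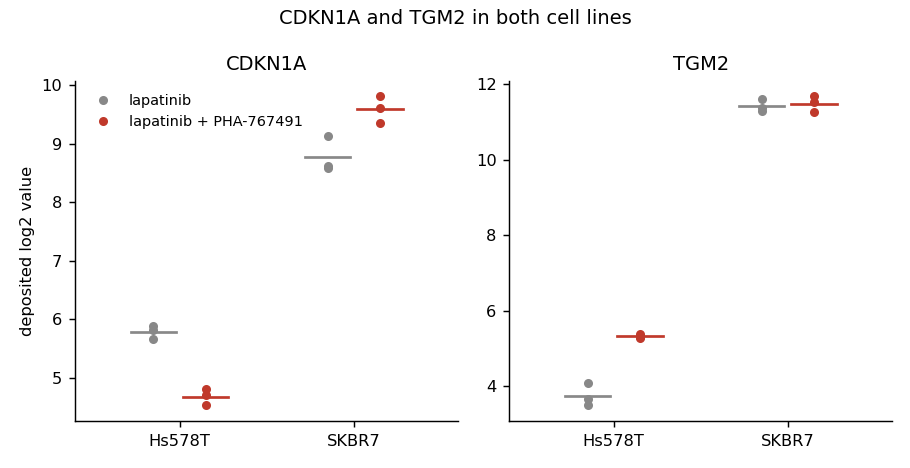
The deposited log2 values of CDKN1A (left) and TGM2 (right) in the lapatinib (grey) and co-treatment (red) libraries of Hs578T and SKBR7, with bars at the means of 3. CDKN1A is lower with co-treatment in Hs578T and higher in SKBR7, and TGM2 is higher in Hs578T (1.58) while it differs by 0.07 in SKBR7.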

How the data were processed

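RNA of Hs578T and SKBR7 was sequenced as read pairs of 100 base pairs (Illumina HiSeq 2500). Per the labels, reads were aligned to GRCh38 with HiSat2 2.2.0.4, while the methods name STAR, and which of them made the values is not settled by the sources used here. The submitters' processing notes name featureCounts 1.4.6 and edgeR. The deposited table gives log2 expression per gene and library, which the authors had scaled by TMM and quantile normalised. An empty cell was kept as missing. A second table of group averages and the authors' own differences was not used.

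The table has 36517 lines, of which 36 that repeat an identifier were dropped. For 16561 genes with 6 values, limma 3.58.1 was run in R 4.3.3 (lmFit, then eBayes with a variance trend, Benjamini-Hochberg adjustment over all genes), and the line term in 12 libraries. Residual degrees of freedom were 4. The prior was infinite with the trend and 1.58 without it. Coordinates are those of the deposited table. Biotypes and mRNA lengths are from the GENCODE annotation of GRCh38, and promoters from RefSeq by symbol. Python 3.11.15, pandas 2.3.3 and matplotlib 3.10.9 were used.

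The members and the 47 gene lists were chosen with earlier results of these data known. Lists defined by a name pattern kept protein-coding genes, and for snoRNA hosts also long non-coding RNAs, as decided after seeing the data. Genes were named by rule: the 15 largest differences in each direction that passed, did not overlap between groups, lay above the median level and had no clone name, up to 4 such members of each list whatever their level, and a fixed set of kinases, receptors, cell cycle and apoptosis genes. Other members are named as examples of their list. A few genes that the rule or the lists hold are not reported here.

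The tests were tried on simulated data. Alternatives were other fits, scalings, filters and leaving out each library.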

Additional observations from a re-analysis of the deposited data

Results flagged for a closer look

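The effect of adding PHA-767491 to lapatinib differed between Hs578T and SKBR7 for CDKN1A and TGM2, by the line term of limma over 12 libraries. For CDKN1A the Hs578T difference minus the SKBR7 difference was -1.92 (adjusted p 0.0068, and 5.5e-06 without the 2 SKBR7 libraries that listed few genes). It was lower with co-treatment in 3 of 3 Hs578T libraries and higher in 3 of 3 SKBR7 libraries than in any lapatinib library of the same line. For TGM2, a transglutaminase, the line term was 1.52 (adjusted p 0.034, and 0.00022 without those libraries). That call was lost after centring (1.29, adjusted p 0.16), without the variance trend (0.96) and in all but 3 of the 12 fits that left out 1 library (adjusted p 0.0017 to 0.17). The CDKN1A call was lost without the trend (0.74) and without SKBR7 co-treatment replicate 2 or 3 (0.054 and 0.076), and passed in the other 10 such fits. TGM2 was at 3.49, 3.65 and 4.08 with lapatinib and at 5.31, 5.39 and 5.26 with co-treatment in Hs578T, while in SKBR7 it was at 11.26 to 11.68 in all 6 libraries, close to the highest value of the table (12.85).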

How the results depend on the processing

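The counts of higher and lower genes were 0 and 0 with all 12 Hs578T libraries in the fit, 2050 and 1599 without the variance trend, and 1337 and 1337 with each gene's own spread alone, a fit added after seeing the data. Values ranked and quantile normalised anew gave 4222 higher and 3854 lower. Centring gave 3333 and 3508, a minimum difference of 0.5 gave 3009 and 1888, and no filter gave 3999 and 2403. Leaving out 1 library at a time gave 2783 to 4949 higher and 1932 to 2848 lower. Same-numbered libraries did not deviate together (correlations 0.01, -0.15 and -0.13), which does not show that they are unpaired. A replicate block gave 2886 higher and 1839 lower. Of 207 named genes 199 were called, and of these 26 lost the call without the trend, 58 with their own spread alone, 16 with the block, 2 after centring and all 199 with 12 libraries. No named gene that was called turned its direction. After centring, 4 of 47 list medians changed sign. The count for the line term, 2 genes, was 0 without the trend, 5 after centring, 635 when ranked anew, 3 with a replicate block, 333 without the 2 SKBR7 libraries that listed few genes, and 0 to 24 with 1 library left out (0 without SKBR7 co-treatment replicate 2 or 3). Depth in reads is not known, so the precision of low values cannot be given.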

Other observations

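Metallothioneins, small zinc and copper binding proteins, were lower throughout. They were picked after their values were seen. All 4 that had a value in the 6 libraries were lower with no overlap between groups, also without the trend. Of all genes, 18.2% were lower without overlap, 14.8% passed as lower and 9.66% did so without the trend. MT2A, the most abundant, was at 9.30, 8.75 and 8.91 with lapatinib and at 7.35, 7.52 and 7.07 with co-treatment (-1.67 ± 0.09, adjusted p 5.1e-68, and 0.013 without the trend). MT1E was lower by 2.52, MT1X by 1.72 and MT1M by 1.14. The 4 genes lie in 1 cluster on chromosome 16 and are close in sequence, so reads may be shared between them.

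Beyond the genes tested, 228 were listed in all 3 co-treatment libraries and in 0 lapatinib libraries, and 103 the other way round. None of them exceeded 1.48 on the log2 scale, and their median levels were -2.20 and -2.35.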
